A study of Mus musculus with 2 samples.

Results

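Visceral endoderm cells of the mouse yolk sac were chosen by a gate on marker genes, in single-cell RNA sequencing of yolk sac tissue at stage E8.75. The gate kept 389 cells, out of 1327 that passed the cell filter and 1817 deposited. All tissue was of a single genotype, Ttr-Cre/+; R26lsl-rtTA-EGFP/+, in which Cre recombinase is driven by transthyretin (Ttr) control sequences and the Rosa26 allele gives rtTA and EGFP only after Cre has acted. No group without these alleles and no treated group was analysed here. The mouse strain is not stated. Cells carried CellPlex tags, were pooled for sequencing and were deposited as 3 tagged samples, called tagged samples 1, 2 and 3. The study asked how ciliated cell types of the yolk sac differ from the visceral endoderm lineage, which its design text describes as lacking cilia. Here the absorptive and secretory programme of the visceral endoderm was described against the other cells of the same tagged samples.

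The visceral endoderm is the outer epithelium of the yolk sac and faces the maternal side. Before the placenta works, it takes up maternal proteins and lipids through a brush border and clathrin-coated pits, breaks them down in large lysosomes and passes the products on to the embryo. It also secretes the plasma proteins and lipoproteins that the liver makes later. Transcription factors shared with the liver and gut, such as HNF4A and GATA4, are known to drive many of these genes.

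A cell that passed the filter had at least 500 genes and between 1% and 10% of its unique molecular identifiers (UMIs, each standing for 1 captured RNA molecule) on mitochondrial genes. A gated cell also had at least 0.3% of its gene UMIs on Ttr, Apob and Apom together, under 3% on 7 globin genes, at most 1 UMI of the endothelial gene Cdh5 and at most 2 UMIs of Cyp26a1, the enzyme that breaks down retinoic acid. The gated cells were therefore selected on the expression of these genes, and any value of Ttr, Apob, Apom, the globins, Cdh5 or Cyp26a1 below is a description with no test. The gated cells numbered 105 of 343 in tagged sample 1 (30.6%, 95% exact binomial interval 25.8 to 35.8), 148 of 497 in tagged sample 2 (29.8%, 25.8 to 34.0) and 136 of 487 in tagged sample 3 (27.9%, 23.98 to 32.14). The intervals overlap and cover counting error only. The threshold of 0.3% fell where few cells lay. Of the cells that met all the other limits, 202 had under 0.03% on Ttr, Apob and Apom, 12 had 0.1% to 0.3%, 10 had 0.3% to 0.5% and 291 had 1% to 2%. The cells just inside had 0.302% and 0.303%, and those just outside had 0.272% and 0.228%.

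**Figure D1:**
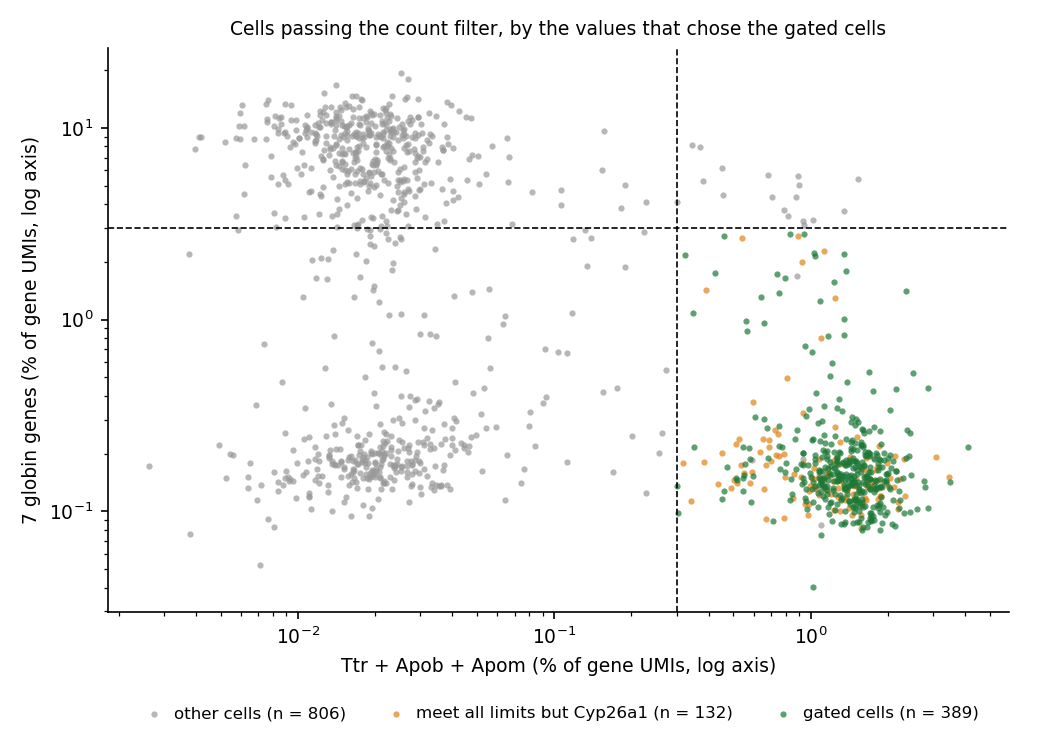
Each point is 1 of the 1327 cells that passed the filter, placed by its percent of gene UMIs on Ttr, Apob and Apom (horizontal, log axis) and on 7 globin genes (vertical, log axis), and the dashed lines are the limits of 0.3% and 3%. The 389 gated cells and the 132 cells that missed only the Cyp26a1 limit lie in the same region, and few cells lie near 0.3%.

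Many cells missed a single limit of the rule. There were 132 cells (55, 54 and 23 in the 3 tagged samples) that met every criterion except the Cyp26a1 limit. They stood at a median of 1.24% on Ttr, Apob and Apom, against 1.41% in the gated cells. Since the Cyp26a1 limit is a number of UMIs, it also depends on depth, and these cells had a median of 63053 UMIs against 55320 in the gated cells. By the rule they belong to the 938 other cells, so each difference from all other cells contains them. The values against the 782 cells under 0.3%, which leave them out, are therefore given beside it, and both comparisons use the same gated sums. The limit on Ttr, Apob and Apom alone was missed by 261 cells (93, 86 and 82), whose median of 0.0209% lay well under it. Fewer cells missed only one of the other limits, at 33 with under 1% mitochondrial UMIs, 33 with over 10%, 14 with 3% or more globin UMIs and 3 with more Cdh5.

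Depth was high in all 3 gated sums, which held 5282043, 9806924 and 7412127 UMIs. The 3 matrices shared 0 cell barcodes. Each tagged sample held gated cells with Xist (42, 66 and 45) as well as gated cells with Y-linked transcripts (36, 36 and 75), under limits chosen on these data. A single embryo would give 1 kind, so a tagged sample cannot be taken as 1 embryo. The design text names 3 embryos. The p-values below set each difference against the spread between tagged samples only. The other cells also differed between tagged samples, since 23.9%, 48.1% and 62.7% of them were globin-rich. For this reason a further comparison used the 493 other cells with under 3% globins. These 493 include the 132 cells that missed only the Cyp26a1 limit (55, 54 and 23 in the 3 tagged samples). Each difference from other low-globin cells therefore contains them too. With other cells at 0.3% or more left out, that comparison gave 6584 calls in place of 5248.

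The label was checked on markers outside the gate. Afp, which encodes alpha-fetoprotein, the main fetal serum protein, stood at 1371, 2865 and 2705 UMIs scaled to a total of 1000000 gene UMIs (CPM) in the gated sums of tagged samples 1, 2 and 3. In cells under 0.3% it stood at 38.8, 54.3 and 43.6 CPM. Cubn, which encodes cubilin, the endocytic receptor of the yolk sac and kidney, stood at 821, 711 and 676 CPM in gated cells and 25.4, 19.9 and 16.8 CPM in cells under 0.3%. Neither gene overlapped between these groups. How many of all genes did not overlap was not counted. Of 11453 genes tested between the groups with edgeR, 32.7% were called higher in gated cells and 32.3% lower (adjusted p under 0.05). After each cell was thinned to 20000 UMIs, which left out 31 gated cells, 97.8% of 358 gated cells had an Afp UMI and 99.7% had a Cubn UMI. Without thinning the shares were 97.43% and 98.97%. In globin-rich cells under 0.3%, which should lack both genes, the thinned shares were 51.6% for Afp and 27.4% for Cubn (80.6% and 54.3% unthinned), with a median depth of 48008 UMIs. Those background cells mostly had few UMIs, with a thinned median of 1 for Afp against 44 in gated cells.

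Low levels of the same genes were present in every class of cell. In globin-rich cells under 0.3%, the level of 11 visceral endoderm genes was between 1.30% (Apob, tagged sample 1) and 3.56% (Trf, tagged sample 1) of the level in gated cells. Rbp4 stood at 1.42%, 1.38% and 1.48%, and Amn at 2.14%, 2.13% and 2.30%. In low-globin cells under 0.3% the same genes were at 1.57% to 3.56%. Whether free RNA gave this low level was not tested.

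Markers of other yolk sac cells were read in the gated sums as whole lists. The 7 erythroid markers outside the gate summed to 40.3, 34.7 and 41.0 CPM in gated cells, against 365, 764 and 850 CPM in cells under 0.3%. The 9 endothelial markers outside the gate summed to 31.2 to 50.9 CPM and the 10 extraembryonic mesoderm markers to 63.4 to 82.2 CPM, each below the level in cells under 0.3%. The 10 blood progenitor and macrophage markers summed to 29.95 to 45.1 CPM, against 63.9 to 64.6 CPM. The 10 trophoblast markers were higher in gated cells in each tagged sample, at 397, 445 and 535 CPM against 371, 153 and 69.8 CPM in cells under 0.3%. In the low-globin part of those cells they summed to 548, 359 and 195 CPM, above the gated value in tagged sample 1. Most of the gated sum was Peg10, an imprinted gene of placenta and other tissues. Peg10 stood at 339, 366 and 451 CPM against 181, 73.1 and 39.5 CPM in cells under 0.3%. Ascl2 and Tfap2c were lower in gated cells, at 0.379 to 1.08 and 0.510 to 0.809 CPM against 2.70 to 36.4 and 2.63 to 39.2 CPM. Tpbpa and Prl3d1 had 0 UMIs in both groups. The 10 parietal endoderm markers, several of them basement membrane genes that other endoderm also makes, summed to 933 to 998 CPM, against 498 to 1736 CPM in cells under 0.3%. In low-globin cells under 0.3% they summed to 851, 4558 and 1729 CPM in tagged samples 1, 2 and 3. The 8 markers of embryonic gut endoderm summed to 22.72, 21.31 and 19.97 CPM in gated cells, above the 7.72, 3.42 and 1.80 CPM in cells under 0.3%. Most of that was Cpm, a membrane carboxypeptidase gene, at 21.2, 18.5 and 18.9 CPM against 3.98, 0.543 and 0.969 CPM. Shh and Nkx2-1 had 0 UMIs in both groups. What part RNA of other cell types has in the differences below was not tested.

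Promoters of the named secretory and absorptive genes were searched for sites of the transcription factors known for this tissue. Of 30 genes, 28 had a promoter in the RefSeq table (GRCm38.p6), with 35 start sites, and the 250 bases before each start were read on both strands. Matches are given here to CAAAGTCCA for HNF4 and AGATAA for GATA factors. The HNF4 motif was found in 0 promoters (against 0.384% of all 32851 promoters) and the GATA motif in 4 (11.4%, against 9.99%). The 2 promoters below hold matches within the 150 bases before the start and belong to the genes of a lysosomal enzyme and a brush border enzyme. A start site of the clathrin gene Clta also held a match there, at -67, and the match of Spp2 lay at -160. Those sequences are not printed. Capitals mark the GATA motif, and the sequences run 5′ to 3′ on the strand of the gene.
Ctsz, chr2:174439040-174439189, minus strand: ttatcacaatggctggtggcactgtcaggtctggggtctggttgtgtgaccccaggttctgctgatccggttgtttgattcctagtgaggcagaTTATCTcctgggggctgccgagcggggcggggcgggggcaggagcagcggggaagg
Dpp4, chr2:62412232-62412381, minus strand: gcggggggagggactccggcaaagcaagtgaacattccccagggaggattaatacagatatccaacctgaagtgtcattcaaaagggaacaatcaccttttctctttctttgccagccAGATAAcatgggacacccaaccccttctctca
These matches describe the letters of the sequence and do not show that a factor binds there.

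Across all genes, counts were summed per tagged sample and group and compared with edgeR's quasi-likelihood test, with Benjamini-Hochberg adjusted p-values over all genes tested and 0.05 as the threshold. Of 11695 genes tested against all other cells, 3342 were higher in gated cells (28.6%) and 3343 were lower (28.6%). Against other low-globin cells, 2576 of 11420 were higher (22.6%) and 2672 lower (23.4%). Against cells under 0.3%, 3749 of 11453 were higher (32.7%) and 3702 lower (32.3%). The first comparison gave 6685 calls in both directions, and 4015 without tagged sample 2. The second gave 5248, and 3374 without tagged sample 3. These p-values set the difference between groups against the spread between the 3 tagged samples. The cells were gated on expression in the same cells, so the groups were not found independently of expression. A low-count filter chose the genes tested, and a gene could pass it through the gated sums alone. That favours higher calls among the tested genes of a list, so the list counts below are descriptions. Log2 differences below are positive where gated cells were higher, and their errors are standard errors (SE).

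The secretory and absorptive lists together, without Ttr, Apob and Apom, held 6.101%, 6.986% and 6.604% of all gene UMIs in the gated sums of tagged samples 1, 2 and 3 (6.56% ± 0.444, SD, n = 3). In the cells under 0.3% they held 1.25%, 1.17% and 1.01%. In all other cells they held 2.63%, 2.54% and 1.56%. The 3 secretory lists of 72 genes gave 4.19% ± 0.400 in gated cells and 0.777% ± 0.0830 in cells under 0.3% (SD, n = 3). The 4 absorptive lists of 88 genes gave 2.37% ± 0.0455 and 0.366% ± 0.0360. In gated cells the absorptive share thus varied less between tagged samples than the secretory share, which was lowest in tagged sample 1, at 3.78%. The gated and other sums did not overlap for either programme.

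Genes of secreted plasma proteins that passed the low-count filter, which high gated sums alone can meet, were higher in gated cells. Of 25 such genes outside the gate, 14 were tested. All 14 were higher than in all other cells, beside 28.6% of all genes tested. Their median log2 difference was 2.42 (-0.03 among all tested genes). Against cells under 0.3% the 14 were also higher (32.7% among all genes tested), with a median of 5.59. Against other low-globin cells 13 were higher (22.6% among all genes tested). The 11 genes that were too low to test include Alb (albumin), Ahsg, Hpx and Apoh, whose gated sums held 1, 3, 4 and 0 UMIs in all. Alb was seen in 1 of 358 thinned gated cells (0.279%, exact interval 0.00707 to 1.55). A count of 0 over the 22501094 gated UMIs allows a level of up to 0.133 CPM. Among the plasma protein genes, Afp was thus read in nearly all thinned gated cells and Alb in almost none.

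Rbp4, whose product carries retinol in plasma together with transthyretin, stood at 8875, 11827 and 10828 CPM in the gated sums. It stood at 173, 186 and 167 CPM in cells under 0.3%, 59.9-fold lower on average (log2 difference 5.94, SE 0.16, adjusted p = 5.3e-08). Against all other cells the difference was 2.29 (SE 0.28, adjusted p = 0.00032). Its partner Ttr, a gate gene, stood at 8633, 11070 and 9912 CPM in gated cells and 155, 161 and 150 CPM in cells under 0.3%. The RNAs of the 2 partner proteins were thus both lowest in tagged sample 1 and highest in tagged sample 2.

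For Afp, the values given above correspond to a log2 difference of 5.70 against cells under 0.3% (SE 0.34, adjusted p = 2.3e-06) and 2.79 against all other cells (SE 0.36, adjusted p = 0.00044). Spp2, which encodes secreted phosphoprotein 24, stood at 241, 486 and 402 CPM in gated cells and 6.32, 8.54 and 7.06 CPM in cells under 0.3%. Afp and Spp2 were lower in tagged sample 1 than in tagged samples 2 and 3, where the values were closer to each other. Trf, which encodes transferrin, the iron carrier of plasma, had the same order, at 227, 431 and 432 CPM against 7.37 to 10.2 CPM. With 1 gated sum per tagged sample, differences between tagged samples have no test.

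The 3 fibrinogen chain genes, whose products form clots, were all higher in gated cells. Fgb, the beta chain gene, stood at 368, 398 and 397 CPM in gated cells and 6.668, 6.598 and 6.370 CPM in cells under 0.3% (log2 difference 5.91, SE 0.11, adjusted p = 1.5e-08). Fga stood at 58.3 to 78.9 CPM and Fgg at 98.3 to 144 CPM in gated cells. Prothrombin (F2) stood at 19.9, 19.1 and 20.4 CPM and antithrombin (Serpinc1) at 33.9, 29.4 and 29.3 CPM. In cells under 0.3% the highest values of these 2 genes were 0.819 and 2.01 CPM.

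Of 18 lipoprotein and lipid assembly genes outside the gate, 17 were tested against all other cells. Of these, 16 were higher (28.6% among all genes tested) and 0 lower, with a median log2 difference of 1.996. Apoa1, the main protein of high-density lipoprotein, stood at 6165, 7793 and 6399 CPM in gated cells and 122, 135 and 137 CPM in cells under 0.3% (log2 difference 5.72, SE 0.16, adjusted p = 7.4e-08). Apoe, the ligand for lipoprotein receptors, stood at 5727, 6118 and 5816 CPM against 377, 265 and 206 CPM (4.43, SE 0.17, adjusted p = 2.7e-07). Apoe was less low in the other cells than Apoa1, at 20.8-fold against 51.6-fold.

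The apolipoprotein genes Apoa2 and Apoa4 stood at 1017, 2112 and 1558 CPM and at 495, 756 and 894 CPM in gated cells. Both were lowest in tagged sample 1 but their order in tagged samples 2 and 3 differed. Their log2 differences from cells under 0.3% were 5.72 (SE 0.30) and 5.76 (SE 0.26). Apoc3, an inhibitor of triglyceride clearance, stood at 160, 211 and 164 CPM against 2.48 to 3.12 CPM. Mttp, the transfer protein that loads lipid onto apolipoprotein B, stood at 234, 195 and 174 CPM against 9.97 to 12.3 CPM. The cargo gene Apob, a gate gene, had 2025, 1812 and 1852 CPM, so Mttp and Apob were both highest in tagged sample 1. Plin2, which coats lipid droplets within cells, was the 1 tested gene of the list that was not called, at 38.2, 60.6 and 54.8 CPM in gated cells against 49.7, 85.6 and 81.8 CPM in cells under 0.3%.

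The secretion machinery of the endoplasmic reticulum was also higher, by smaller differences. Of 29 genes tested, 25 were higher than in all other cells (28.6% among all genes tested) and 0 lower. The median log2 difference was 0.64. Against other low-globin cells 16 of 29 were higher (22.6% among all genes tested), with a median of 0.27. Against cells under 0.3%, 28 of 29 were higher (32.7% among all genes tested), with a median of 0.92. Calr, the calcium-binding chaperone calreticulin, stood at 1283, 1216 and 1154 CPM in gated cells and 547, 496 and 391 CPM in cells under 0.3% (log2 difference 1.39, SE 0.10, adjusted p = 5.9e-06). Hspa5, the chaperone BiP, stood at 1251, 1066 and 1037 CPM against 749, 666 and 531 CPM (0.82, SE 0.10, adjusted p = 0.00015). Its difference from other low-globin cells was 0.16 (SE 0.07, adjusted p = 0.11), which missed the threshold. The list as a whole held 1.08% ± 0.0319 of UMIs in gated cells, 0.992% ± 0.117 in low-globin cells under 0.3% and 0.443% ± 0.0159 in globin-rich cells under 0.3% (SD, n = 3). The gated and low-globin values overlapped between tagged samples, and the globin-rich values lay below both.

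**Figure D2:**
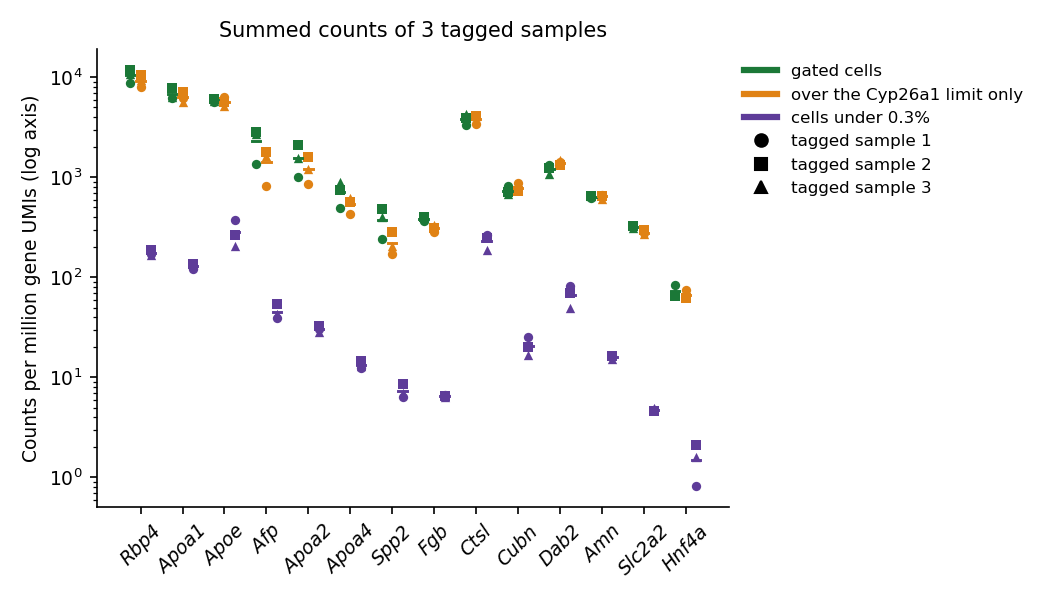
Levels of 14 genes in UMIs per 1000000 gene UMIs (log axis), with a point for each of 3 tagged samples (circle, square and triangle) and a bar at their mean, in gated cells, in cells over the Cyp26a1 limit only and in cells under 0.3%. The 14 genes were picked from the lists, and their gated values lie above those of the cells under 0.3%. Of all genes tested, 32.7% were called higher in gated cells than in cells under 0.3%. The cells over the Cyp26a1 limit lie near the gated cells, with Afp and Spp2 lower in each tagged sample.

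Among 20 endocytic receptor and adaptor genes, all tested, 15 were higher in gated cells than in all other cells and 3 were lower. Among all genes tested, 28.6% were higher and 28.6% lower. The median log2 difference of the list was 0.92. Cubilin is held at the membrane by amnionless, and its gene Amn stood at 615, 646 and 659 CPM in gated cells and 16.5, 16.5 and 15.2 CPM in cells under 0.3% (log2 difference 5.35, SE 0.10, adjusted p = 1.5e-08). For Cubn the difference was 5.20 (SE 0.13, adjusted p = 3.9e-08). Lrp2, the gene of the large receptor megalin that works with cubilin, stood at 234, 168 and 172 CPM against 18.2 to 22.9 CPM (3.27, SE 0.13). Dab2, the adaptor that links megalin to clathrin, stood at 1338, 1239 and 1092 CPM against 82.9, 70.1 and 49.4 CPM (4.23, SE 0.16, adjusted p = 2.4e-07). All 4 genes of this receptor complex were thus higher, by 9.47-fold for Lrp2 to 39.8-fold for Amn.

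Receptors for other cargo were split. Folr1, a folate receptor, stood at 436, 260 and 323 CPM in gated cells against 6.23 to 12.8 CPM, and Fcgrt, the neonatal antibody receptor, at 36.0, 61.4 and 57.1 CPM against 1.87 to 3.96 CPM. Tfrc, the transferrin receptor, was lower, at 25.4, 25.4 and 31.6 CPM in gated cells against 110, 194 and 188 CPM in cells under 0.3% (log2 difference -2.57, SE 0.26, adjusted p = 4.2e-05). Tfrc was also called lower against other low-globin cells, by a log2 difference of -0.77 (SE 0.14, adjusted p = 0.0019). Erythroid cells are known for high Tfrc, and what part they have in these differences was not tested. The clathrin assembly gene Picalm was also lower, at 59.4 to 62.3 CPM against 112 to 155 CPM, but its difference from other low-globin cells was -0.18 (adjusted p = 0.15). The clathrin light chain gene Clta differed little, by 0.51 from all other cells (SE 0.10, adjusted p = 0.0030), and by 0.46 without tagged sample 2 (adjusted p = 0.06), where it missed the threshold.

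Lysosomal genes were higher in 24 of 25 cases against all other cells (28.6% among all genes tested). None was lower, and the median log2 difference was 1.64. Ctsl, the protease cathepsin L, stood at 3369, 3954 and 4299 CPM in gated cells and 265, 245 and 188 CPM in cells under 0.3% (log2 difference 4.10, SE 0.15, adjusted p = 1.8e-07). Ctsb and Ctsz, 2 further cathepsins, stood at 903 to 976 CPM and 805 to 970 CPM in gated cells, and differed by 3.603 (SE 0.14) and 3.49 (SE 0.12). Lgmn, an asparagine-cutting protease, stood at 828, 796 and 711 CPM against 30.4 to 40.4 CPM. Not every lysosomal protease gene was raised to that degree, since Ctsd (cathepsin D) stood at 118, 109 and 114 CPM against 61.5, 74.1 and 63.9 CPM (0.80, SE 0.11, adjusted p = 0.00024). Psap, the precursor of sphingolipid activators, was the gene not called, at 28.5 to 32.6 CPM against 32.3 to 38.1 CPM, and was called lower against other low-globin cells (-0.34, adjusted p = 0.03).

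Of 19 brush border genes, 15 were tested against all other cells. Of these, 14 were higher and 1 lower (28.6% each among all genes tested), with a median log2 difference of 2.05. Pdzk1, a scaffold for apical transporters, stood at 145, 194 and 179 CPM in gated cells and 4.09 to 4.68 CPM in cells under 0.3% (log2 difference 5.33, SE 0.16, adjusted p = 9.2e-08). Vil1, the microvillus protein villin, stood at 71.4, 93.2 and 72.6 CPM against 1.17 to 2.64 CPM, and the actin bundler Espn at 115, 142 and 110 CPM against 1.99 to 3.42 CPM. Dpp4, a surface peptidase, stood at 134, 109 and 126 CPM against 5.03, 4.04 and 2.22 CPM (5.11, SE 0.20, adjusted p = 2.7e-07). Ezr, the membrane linker ezrin, differed less, with 548, 593 and 560 CPM against 117, 74.1 and 80.3 CPM (2.70, SE 0.14). The 2 related scaffold genes moved in opposite directions. Slc9a3r1 stood at 519, 596 and 601 CPM against 34.6 to 71.6 CPM, while Slc9a3r2 stood at 2.46, 2.55 and 3.64 CPM against 20.7, 11.2 and 8.66 CPM (-2.14, SE 0.33, adjusted p = 0.00047). The gut peptidase genes Mep1a and Anpep had 0 and 10 UMIs in all gated cells.

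Of 24 nutrient and metal transporter genes, 21 were tested against all other cells. Of these, 15 were higher and 2 lower (28.6% each among all genes tested), with a median log2 difference of 1.80. Slc2a2, a glucose transporter of liver and gut, stood at 320, 328 and 313 CPM in gated cells and 4.68, 4.66 and 4.99 CPM in cells under 0.3% (log2 difference 6.08, SE 0.11, adjusted p = 1.5e-08). Slc2a3, a glucose transporter with high affinity, stood at 2963, 2943 and 2848 CPM against 184, 153 and 85.5 CPM (4.43, SE 0.23). The widely expressed glucose transporter gene Slc2a1 was not called, at 221, 278 and 266 CPM against 275, 248 and 230 CPM (0.06, SE 0.11, adjusted p = 0.63). The 3 glucose transporter genes therefore ranged from no called difference to 67.1-fold.

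Transporters of other nutrients were also higher. Slc13a4, a sulfate transporter, stood at 405, 344 and 318 CPM in gated cells against 7.34 to 8.77 CPM (log2 difference 5.46, SE 0.12), and Slc7a9, a subunit for cystine uptake, at 71.4 to 92.9 CPM against 1.73 to 2.11 CPM. The zinc importer Slc39a4 stood at 54.3, 52.6 and 48.6 CPM against 1.55 to 2.34 CPM, and the iron exporter Slc40a1 at 38.2, 45.7 and 42.2 CPM against 2.35 to 4.68 CPM. The amino acid transporter genes Slc38a2 and Slc38a4 were lower. Slc38a2 stood at 44.3, 41.2 and 38.7 CPM against 102, 100.4 and 89.4 CPM (-1.20, SE 0.09, adjusted p = 6.3e-06), and Slc38a4 at 6.06, 1.94 and 2.70 CPM against 50.5, 27.7 and 16.5 CPM (-3.18, SE 0.46, adjusted p = 0.00034).

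Of 18 genes for epithelial junctions and keratins, 14 were higher and 2 lower than in all other cells (28.6% each among all genes tested). The median log2 difference was 1.49. The claudin genes Cldn7 and Cldn6 stood at 493 to 569 CPM and 263 to 283 CPM in gated cells, against 11.9 to 61.1 CPM and 7.48 to 29.0 CPM in cells under 0.3%, where both were highest in tagged sample 1. Krt8 and Krt18, the keratins of simple epithelia, stood at 399, 519 and 553 CPM and at 496, 745 and 714 CPM. Their differences from all other cells were 0.76 (SE 0.16, adjusted p = 0.0036) and 0.91 (SE 0.20, adjusted p = 0.0044), and from other low-globin cells 0.01 (adjusted p = 0.96) and 0.18 (adjusted p = 0.41). The sign of the Krt8 difference from low-globin cells changed with the processing. Tjp1, a tight junction scaffold, was lower, at 45.6, 37.6 and 39.3 CPM against 121, 68.3 and 58.0 CPM (-0.96, SE 0.21, adjusted p = 0.0035). Krt19 was lower than in all other cells by 1.22 (log2 difference -1.22, SE 0.32, adjusted p = 0.01), and without tagged sample 1 the difference was -0.75 (adjusted p = 0.051).

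**Figure D3:**
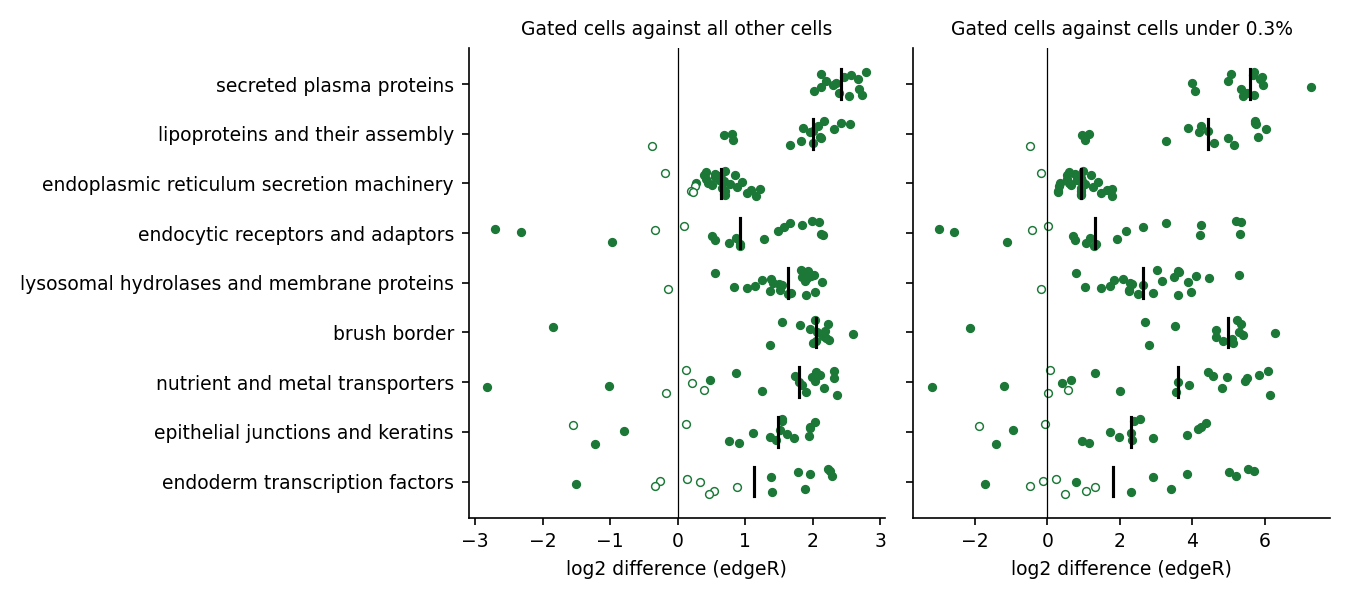
Log2 differences of gated cells from all other cells (left) and from cells under 0.3% (right) for each tested gene of 9 lists, without the gate genes; filled points have an adjusted p under 0.05 in edgeR, open points do not, and black bars are list medians. Medians run from 0.64 (secretion machinery) to 2.42 (plasma proteins) on the left and from 0.92 to 5.59 on the right.

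Among 20 endoderm transcription factor genes, 16 were tested against all other cells. Of these, 8 were higher and 1 was lower (28.6% each among all genes tested), and 7 were not called. Hnf4a, the nuclear receptor needed for visceral endoderm function, stood at 84.4, 65.1 and 71.2 CPM in gated cells and 0.819, 2.10 and 1.59 CPM in cells under 0.3% (log2 difference 5.55, SE 0.23, adjusted p = 3.4e-07). The forkhead genes Foxa2 and Foxa3 stood at 29.2, 32.4 and 30.4 CPM and at 23.9, 29.8 and 27.4 CPM, against 1.18 to 3.03 and 0.554 to 1.05 CPM.

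The 2 GATA genes of the list encode related factors of early endoderm. Gata4 stood at 44.5, 34.3 and 34.0 CPM in gated cells against 4.33, 7.92 and 2.98 CPM in cells under 0.3% (log2 difference 2.90, SE 0.30, adjusted p = 5.1e-05). Gata6 stood at 25.4, 27.2 and 27.4 CPM against 22.2, 34.1 and 14.1 CPM (0.22, SE 0.27, adjusted p = 0.49), so its groups overlapped. Against other low-globin cells, at 32.8, 60.9 and 41.6 CPM, Gata6 was lower in gated cells (-0.62, SE 0.21, adjusted p = 0.0363). Hhex, a homeobox gene of anterior endoderm and of endothelium, was lower, at 3.98, 2.04 and 4.05 CPM against 15.1, 9.94 and 8.52 CPM (-1.72, SE 0.29, adjusted p = 0.00077). Otx2, a factor of the visceral endoderm around the early embryo, had 0 UMIs in gated cells, which allows up to 0.133 CPM. Sox17 was not called against all other cells, and against cells under 0.3% it was higher by 0.80 (SE 0.25, adjusted p = 0.022).

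Outside the lists, the gate and mitochondrial, ribosomal and unnamed genes, the 10 genes in each direction with the largest differences from other low-globin cells were taken, among those also called against all other cells. Those higher were Sod3, H2-Q2, Erich4, Tmem30b, Sh2d4a, Fxyd2, Slc16a9, Gjb2, Cdo1 and Crabp2, with log2 differences of 1.81 to 2.26 from other low-globin cells and 2.40 to 2.83 from all other cells. Both sets of other cells include the 132 cells that missed only the Cyp26a1 limit, and the cells under 0.3% do not. The sizes of these higher differences are therefore not to be set against those of the lower genes below. Fxyd2, a regulator of the sodium pump, stood at 329, 460 and 522 CPM in gated cells against 9.36, 12.2 and 9.69 CPM in cells under 0.3%. Sod3, which encodes an extracellular superoxide dismutase, stood at 20.3, 38.9 and 36.2 CPM against 0.692 to 1.01 CPM, and Gjb2, the gap junction protein connexin 26, at 34.8, 47.1 and 65.3 CPM against 0.468 to 2.64 CPM. Crabp2, a cytoplasmic carrier of retinoic acid, stood at 21.8, 57.2 and 63.4 CPM, again lowest in tagged sample 1. Those lower were Lyve1, Igf1, Cd34, Icam2, Gap43, Cnrip1, Gpr182, Gngt2, Rasip1 and Ctla2a, with differences from -5.12 to -6.50 and from -4.37 to -5.70. Several of them, such as Lyve1, Cd34, Icam2 and Rasip1, are known from endothelium, and cells with more than 1 Cdh5 UMI had been kept out of the gate. Lyve1 stood at 1.51, 1.73 and 1.08 CPM in gated cells against 67.7, 147 and 64.8 CPM in cells under 0.3%.

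Within the gated cells the secretory and absorptive shares were compared at an equal depth of 20000 UMIs per cell, in 92, 140 and 126 cells of the 3 tagged samples. The secretory share of a cell ranged from 1.58% to 6.62%, with medians of 3.76%, 4.59% and 4.24%. The absorptive share ranged from 1.10% to 3.4%, with medians of 2.37%, 2.46% and 2.44%. Tagged sample 1 thus had the lowest secretory median while the absorptive medians lay close together. Across cells within a tagged sample, Spearman's rho between the 2 shares was 0.44, 0.37 and 0.63 (92, 140 and 126 cells). The shares come from the same UMIs of each cell and so are not independent, and cells are not replicates.

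Single genes varied to different degrees among gated cells. Afp ran from 0 to 167 UMIs per 20000, with medians of 21, 53 and 51 in tagged samples 1, 2 and 3, and its 10th percentiles were 1.10, 21.0 and 19.0. Spp2 had medians of 3, 9 and 7 UMIs and ran to 30. Rbp4 was read in every one of these cells, with a lowest value of 23, medians of 183.5, 237.5 and 221.5 and a highest of 396. Cubn had medians of 16, 13 and 14 UMIs and ran from 0 to 34. Tagged sample 1 therefore differed in having more cells with little Afp and Spp2, while its Cubn median was the highest of the 3. Across cells, Afp and Spp2 varied together, with rho of 0.74, 0.66 and 0.59 within the tagged samples, while Afp and Cubn gave -0.09, 0.01 and 0.13. These values are descriptions over cells of 1 library pool at equal depth.

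The 132 cells that missed only the Cyp26a1 limit were compared with the gated cells after the data had been seen. Their Cyp26a1 level, which chose them, was 91.5, 70.6 and 71.6 CPM against 18.2, 7.24 and 9.85 CPM in gated cells. The secretory and absorptive lists held 6.21% ± 0.295 of their UMIs (SD, n = 3), against 6.56% ± 0.444 in gated cells. Of 9871 genes tested with edgeR, 1 was higher in gated cells (0.0101%) and 3 were lower (0.0304%), and 516 had an unadjusted p under 0.05. The gene that was higher was Tmsb4x, an actin-binding peptide, at 292, 270 and 273 CPM against 132, 189 and 163 CPM (log2 difference 0.78, SE 0.11, adjusted p = 0.0149). The lower genes were Fst, which encodes the activin inhibitor follistatin, Myl3, a myosin light chain, and Flt1, a VEGF receptor. Fst stood at 7.38, 6.42 and 2.97 CPM in gated cells against 20.6, 25.2 and 24.6 CPM (-2.08, SE 0.26, adjusted p = 0.00896). Myl3 differed by -2.46 (adjusted p = 0.0149) and Flt1 by -2.28 (adjusted p = 0.0484). Of the 9 lists, none had a called gene here. Without tagged sample 3 there were 2 calls, which did not include Tmsb4x, Myl3 or Flt1, and without tagged sample 1 there were 21. Each of the 4 calls was also lost under at least 1 other alternative. DESeq2 called 13 genes, and 98 genes passed with the tagged sample as a block, 52 higher and 46 lower.

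Afp and Spp2, picked here after their values were seen, were lower in the cells over the Cyp26a1 limit in each tagged sample. Afp stood there at 815, 1793 and 1641 CPM and Spp2 at 172, 287 and 206 CPM. Without the block their log2 differences of 0.72 (SE 0.27, adjusted p = 0.87) and 0.76 (SE 0.23, adjusted p = 0.63) did not pass. With the tagged sample as a block, which removes the spread between tagged samples, they were 0.71 (adjusted p = 5.38e-09) and 0.73 (adjusted p = 9.53e-07). The plasma protein list without Ttr, which holds both genes, was also lower in cells over the limit in each tagged sample. It held 0.978%, 1.35% and 1.21% of UMIs there, against 1.14%, 1.64% and 1.51% in gated cells. Its 13 tested genes had a median log2 difference of 0.48, none called. The lipoprotein list without Apob and Apom went both ways, at 1.57%, 1.68% and 1.45% against 1.53%, 1.88% and 1.65%. Cubn was not lower, at 878, 737 and 740 CPM in cells over the limit against 821, 711 and 676 CPM in gated cells.

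**Figure D4:**
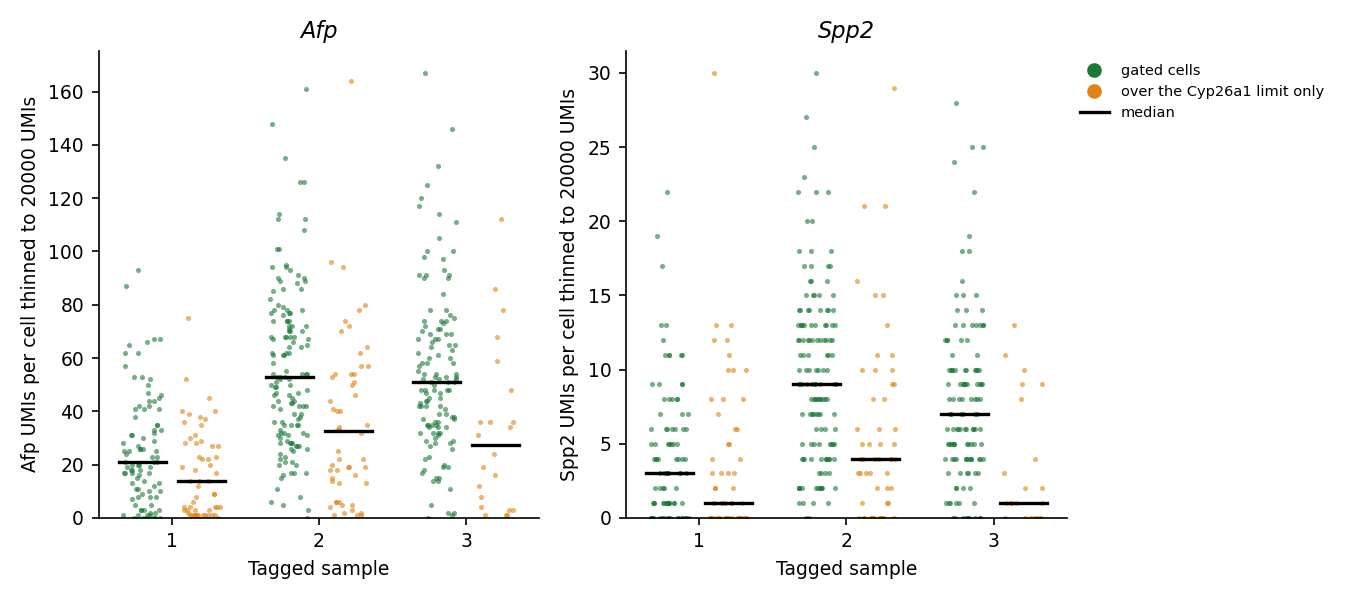
UMIs of Afp (left) and Spp2 (right) in each cell after thinning to 20000 UMIs, by tagged sample, in gated cells and in cells over the Cyp26a1 limit only, with black bars at the medians. Gated medians were 21, 53 and 51 for Afp and 3, 9 and 7 for Spp2, each above the median of the other cells of the same tagged sample.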

How the data were processed

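Dissociated yolk sac cells were labelled with CellPlex oligonucleotides and run as 1 pool by droplet sequencing, per the labels. Per the file headers, Cell Ranger 6.1.2 made the deposited UMI counts, which are raw and cover 30970 gene rows. The submitters' processing notes name mm10 (GRCm38). Which annotation was used and what rule gave cells their tags are points not given in the sources used here. The most common leading tag was that of 460, 651 and 705 cells in the 3 tagged samples. The members and gene lists were chosen with earlier results of these data known.

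Counts were summed per tagged sample and group, since cells are not replicates. Groups were fitted in pairs, 3 sums each, with edgeR 4.0.16 on R 4.3.3 (TMM scaling, filterByExpr, glmQLFit, glmQLFTest, two-sided, Benjamini-Hochberg). Gate genes and mitochondrial genes were left out of every count of calls. The text names genes from the 4 most abundant of each list and up to 3 lower ones. It also names, in each direction, the 10 largest differences from other low-globin cells among genes called in both comparisons, at 20 or more CPM in the higher group, alike in direction in all 3 tagged samples, and not in a list, the gate, or the mitochondrial, ribosomal or unnamed genes. Other genes in the text were chosen from the lists for their known role. CPM was UMIs per 1000000 gene UMIs of a sum and allows no ranking between genes.

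Both sums of a comparison come from the same tagged sample, so the numbers pair them. Their deviations from the group means correlated across genes by 0.07, 0.30 and 0.05 against all other cells and by 0.33, 0.24 and 0.17 against the cells over the Cyp26a1 limit. No fit removed doublets. Scrublet in scanpy 1.11.5 called 9, 32 and 33 cells, 4, 8 and 5 of them gated, and their removal was an alternative.

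Alternatives were DESeq2 1.42.0, library size scaling, no low-count filter, the block, thinning, globins left out, other gates and cell filters, and each tagged sample left out. Leaving out the Cyp26a1 limit, and the comparison with the cells over it, were added after seeing the data. On simulated data with changed genes of 4-fold, the test recovered 92.0% of 50 against all other cells (11701 genes run), 96.0% of 50 against low-globin cells (11435), 93.8% of 48 against cells under 0.3% (11458) and 100% of 50 against cells over the limit (9886). Of changes of 2-fold in those 4 comparisons it recovered 54.2%, 72.0%, 71.4% and 84.0%. Unchanged genes that were called numbered 9, 7, 14 and 8. Except against cells over the limit, far fewer genes were changed in the simulation than were called in the data. These rates therefore need not hold for the fits of the data. EGFP and rtTA transcripts were not analysed here. Some results are not reported here.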

Additional observations from a re-analysis of the deposited data

Results flagged for a closer look

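The row of the Cre transgene held 5 UMIs over all cells, and no comparison above used it. It was flagged for passing a set limit of 3 UMIs, which is not a measured background. Of these, 3 were in gated cells and 1 in a cell under 0.3%. All tissue carried the transgene, so there was no sample without it to give a background level.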

How the results depend on the processing

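The share of cells that were gated (29.4%) moved beyond its spread between tagged samples with a gate at 1% (24.4%), with no lower mitochondrial limit (24.6%), with no Cyp26a1 limit (40.0%) and with the gate applied to a random 50% of each cell's UMIs (35.4%). The share of UMIs in the secretory and absorptive lists stayed within its spread in all 10 alternatives (6.35% to 6.89%). Against all other cells 6685 genes were called, 5340 to 7791 over the alternatives that kept all 3 tagged samples, and 4015 to 6580 with a tagged sample left out, the lowest without tagged sample 2. Against other low-globin cells 5248 were called, 4294 to 6975 over the alternatives and 3374 to 4712 with a tagged sample left out, the lowest without tagged sample 3. The block on tagged samples gave 6634 and 5640 calls and changed no call of the 65 named genes in these 2 comparisons. Library size scaling shifted the median of all genes against low-globin cells to -0.156 and the share of calls that were higher from 49.1% to 35%. Of 845 values of named genes against all other cells, all kept their direction and call, and with a tagged sample left out 3 of 195 (Krt19, Sec61b and Clta) lost the call. Against low-globin cells 828 of 845 and 183 of 195 did so. Krt8 there reversed with library size scaling (-0.13), thinning (-0.14), the random 50% of UMIs (-0.076), cells at 0.3% or more left out (-0.045), no Cyp26a1 limit (-0.021), and gave -7.17e-05 to 0.022 with a tagged sample left out. Against the cells over the Cyp26a1 limit, 4 genes were called, 13 by DESeq2, 112 with no low-count filter, 98 with the block, 0 with a gate at 1%, and 2 to 21 with a tagged sample left out. Of those 4, Tmsb4x was not called with Scrublet doublets removed (adjusted p = 0.31), Myl3 with the random 50% of UMIs (0.23), Fst with a gate at 1% (0.46), and Flt1 with library size scaling (0.0598), the random 50% of UMIs (0.0577), no lower mitochondrial limit (0.0656) and a gate at 0.1% (0.0548). With about 10 or fewer UMIs per sum, as for Gc or Cdhr5, depth limits the precision.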

Other observations

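Gated cells with Xist and gated cells with Y-linked transcripts were read apart within each tagged sample, since both kinds were present. Afp stood at 951, 2745 and 2339 CPM in Xist cells and at 1846, 3211 and 2901 CPM in Y cells of tagged samples 1, 2 and 3, so it was higher in Y cells in each. Spp2 had the same order, at 162, 455 and 349 CPM against 327, 540 and 414 CPM. Apoa4 did not, at 458, 857 and 940 CPM against 611, 679 and 865 CPM, and Cubn differed little, at 824, 721 and 640 CPM against 906, 719 and 703 CPM. Tagged sample 1 had the lowest Afp in both kinds of cell. How many embryos stand behind each kind of cell is not known, and the differences were not tested.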
